A study of Homo sapiens with 4 samples.

Results

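Matrix metalloproteinases (MMPs) and the inhibitor TIMP1 were examined in Ca9-22 cells with and without knockdown of KPNA4. The 10 genes MMP1, MMP2, MMP3, MMP7, MMP9, MMP10, MMP13, MMP14, MMP28 and TIMP1 were chosen by name, and every gene probe whose transcript belongs to one of them was taken. This gave 10 probes, 1 per gene, of 34127 gene probes on the array. Ca9-22 is an established human line derived from gingival squamous cell carcinoma, grown in medium with serum, and KPNA4 encodes an importin alpha that carries proteins with a nuclear localization signal into the nucleus. The series holds 4 cultures of this single line, 2 negative control cultures and 2 KPNA4 knockdown cultures, which the submitters call biological replicates. The labels state that RNA was taken 3 days after transfection of siRNA, whereas the study describes short hairpin RNA against KPNA4 for its knockdown cells, so the reagent is not settled by the sources. Each culture was read on 1 Agilent array with 1 dye, and all 4 arrays lay on the same slide.

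MMPs are zinc-dependent endopeptidases that are made as inactive precursors and cleave collagens, proteoglycans, basement membrane proteins, cytokines and cell surface proteins. Collagenases open fibrillar collagen, gelatinases degrade denatured collagen and basement membrane collagen, stromelysins and matrilysin have broad substrate ranges and can activate other MMP precursors, and membrane-type MMPs act at the cell surface. TIMPs bind active MMPs and block them. In squamous carcinoma and in healing mucosa several of these enzymes are made by the epithelial cells themselves, and many MMP promoters are known to carry an AP-1 site just upstream of a TATA box.

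The promoters of MMP7 and MMP10 are shown because both genes lie in the same chromosomal cluster and rose after KPNA4 knockdown. The RefSeq promoter table (GRCh38.p14), from 250 bases before to 50 bases after each start, holds 4 of the 10 genes, namely MMP7, MMP10, MMP14 and TIMP1. MMP1, MMP2, MMP3, MMP9, MMP13 and MMP28 are named only. In the sequences below, written 5′ to 3′ on the strand of the gene, capitals mark matches to AP-1 (TGANTCA, searched on both strands), ETS (AGGAAG or its reverse complement) and the TATA box (TATAAA, sense strand). MMP7 lies at chr11:102530698-102530997 and MMP10 at chr11:102780579-102780878, both on the minus strand.
MMP7: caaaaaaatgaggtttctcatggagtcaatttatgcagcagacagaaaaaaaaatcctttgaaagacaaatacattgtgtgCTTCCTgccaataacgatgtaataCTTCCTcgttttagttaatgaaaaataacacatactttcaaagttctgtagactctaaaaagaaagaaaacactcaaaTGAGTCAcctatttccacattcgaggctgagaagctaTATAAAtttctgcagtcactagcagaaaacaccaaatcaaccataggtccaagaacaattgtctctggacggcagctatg
MMP10: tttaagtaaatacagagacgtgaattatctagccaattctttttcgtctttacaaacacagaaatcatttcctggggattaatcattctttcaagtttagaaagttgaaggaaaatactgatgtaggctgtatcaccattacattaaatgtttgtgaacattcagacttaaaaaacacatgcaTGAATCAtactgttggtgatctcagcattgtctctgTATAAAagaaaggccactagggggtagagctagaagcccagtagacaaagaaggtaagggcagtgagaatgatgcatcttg
Both promoters held 1 AP-1 match whose first base was 67 bases upstream of the start, and a TATA match that began 30 bases upstream in MMP7 and 31 bases upstream in MMP10. MMP7 also held 2 ETS matches, 169 and 145 bases upstream. Of 35116 promoters of the same length, 7.71% held an AP-1 match, 33.6% an ETS match and 7.33% a TATA match. The TIMP1 promoter held 1 ETS match 87 bases upstream and no AP-1 or TATA match, and the MMP14 promoter held none of the 3 motifs. An NF-kB consensus, present in 11.3% of all promoters, matched none of these 4. The motif letters overlap nowhere in MMP7 or MMP10. MMP20, a gene of the same cluster that was not well above background on any array, also held an AP-1 match, 112 bases upstream, and a TATA match, 72 bases upstream. MMP8 of the cluster held a TATA match without an AP-1 match, and MMP27 held neither. The inhibitor TFPI2, likewise at background on all arrays, held an AP-1 match 87 bases upstream. A match describes letters in the window and not a bound site.

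Values below are the log2 processed signal of a probe minus that of its array at the 75th percentile, so that 0 stands for the brightness of the 75th percentile. That percentile was 1466 and 1381 intensity units in the control cultures and 1938 and 2096 after knockdown. Between 70.2% and 71.0% of the probes were well above background. Groups were compared with limma across all 19550 genes tested, with p-values adjusted by Benjamini-Hochberg and called under 0.05. With 2 arrays per group the p-values rest only on the spread between these cultures. For each gene limma drew that spread toward a value shared by all genes tested, so SE and p do not reflect its own replicates alone. KPNA4 itself read 4.02 and 4.03 in the control cultures and 2.36 and 2.05 after knockdown, a log2 fold change of -1.82 (SE 0.12, limma adjusted p = 0.00183). All 8 markers of squamous epithelium were well above background on every array. Of these, 6 were higher after knockdown (median log2 fold change of the 8 markers 1.27), among them KRT6A by 6.94, DSG3 by 1.73 and KRT14 by 1.39, TP63 did not pass the threshold, and EPCAM was lower at -0.51 (7 higher and 0 lower without scaling). Their summed level, relative to the 75th percentile, was 57.6 to 57.9 in the control cultures and 63.0 to 63.1 after knockdown, most of it the EPCAM probe. That probe gave 46.2 and 45.9 in the control cultures and 32.6 and 32.0 after knockdown, so the sum shows little of the rise of the 6 higher markers. The part of these marker shifts in the results below was not tested. In bulk RNA, fewer cells of a type and less RNA per cell cannot be told apart. RPS4Y1, HLA-DRB5 and GSTM1, whose presence depends on the genome of a line and which were chosen because an earlier analysis of these arrays named them, were well above background on neither control array and on both knockdown arrays (at least 43.4-fold, 5.91-fold and 1.58-fold higher). Whether the 4 cultures had the same genome was not tested, and for each result below a difference between cultures and an effect of the knockdown cannot be told apart.

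After KPNA4 knockdown, 6 of the 9 members tested were higher (MMP1, MMP7, MMP9, MMP10, MMP13 and MMP14), and MMP3 and TIMP1 were lower. MMP28 did not pass the threshold and MMP2 was not tested, since it was not well above background on any array. Across all genes tested, 20.3% were higher and 29.5% lower, 49.8% in all, so a called change by itself was common on these arrays. The groups did not overlap for 9 of 9 members tested, against 79.9% of all genes. Called changes of at least 2-fold in the fitted value were seen for 4 members, MMP3, MMP7, MMP10 and MMP13, against 8.51% of all genes. The median log2 fold change of the 9 members tested was 0.54, with or without MMP13 at its limit given below, against -0.10 for all genes. The filter asked for a probe well above background in both cultures of 1 group or of both; 8 members passed it through both groups, and MMP13 passed only through the knockdown arrays and so had to differ.

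**Figure D1:**
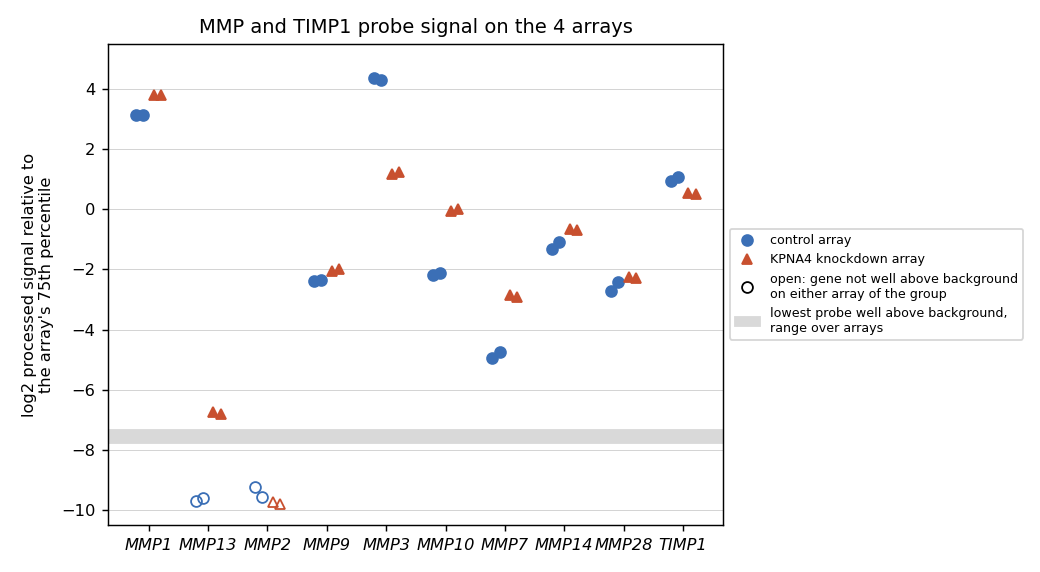
Scaled log2 processed signal of the 10 member probes (0 is the 75th percentile of an array) on 2 control arrays (circles) and 2 KPNA4 knockdown arrays (triangles), with no averaging. MMP3 drops from 4.36 and 4.31 to 1.16 and 1.24, MMP7, MMP10 and MMP13 rise, and open symbols show MMP2 on all arrays and MMP13 on the control arrays at background.

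Among the collagenases, MMP1, the interstitial collagenase that opens fibrillar collagen, was bright on all arrays. It read 3.13 and 3.14 in the control cultures and 3.80 and 3.80 after knockdown. Both knockdown arrays were above both control arrays, and the log2 fold change was 0.67 (SE 0.06, limma adjusted p = 0.00286), or 1.59-fold. MMP13, a collagenase with a broad range of collagen substrates, stood at -9.69 and -9.61 in the control cultures, where it was not well above background, and at -6.76 and -6.80 after knockdown, well above background in both cultures. Its processed intensity was 1.78 and 1.77 units in the control cultures and 17.9 and 18.7 units after knockdown. MMP13 was therefore at least 1.51-fold higher after knockdown, a limit computed from the mean after knockdown and from the dimmest probe that counted as well above background in each control culture. That limit is approximate, as some brighter probes did not count. PDGFRB, for example, read -7.29 and -7.16 in the control cultures, where the dimmest such probes read -7.42 and -7.34, and it counted in only 1. The same holds for every other fold given as a least value. The fitted log2 difference of 2.87 had a limma adjusted p of 0.000312, which rests on background readings of the control arrays and is no test of that limit. Under normexp background correction the fitted difference was 1.49 (limma adjusted p = 0.651). When 12 spots in bright surroundings were also left out, a choice made after seeing the data, it was -0.11 (limma adjusted p = 0.119). Both alternatives added an offset of 50 units, more than the processed intensity of MMP13 on any array. Such an offset narrows differences between dim probes, so neither value tests the rise. Narrowing alone does not turn a sign, and the cause of the negative value was not tested.

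The gelatinases, which degrade denatured collagen and type IV collagen of basement membranes, were not measured equally well. MMP2, which in tissue is made mostly by stromal cells, read -9.23 and -9.57 in the control cultures and -9.74 and -9.81 after knockdown. With processed intensities of 1.82 to 2.44 units it was not well above background on any array, and no fold change is given. MMP9 read -2.37 and -2.34 in the control cultures and -2.07 and -1.98 after knockdown. The groups did not overlap, but the rise was small, with a log2 fold change of 0.33 (SE 0.06, limma adjusted p = 0.0181), or 1.26-fold. This call was lost without control replicate 1 (limma adjusted p = 0.0546), without KPNA4 knockdown replicate 1 (limma adjusted p = 0.0698) and without KPNA4 knockdown replicate 2 (limma adjusted p = 0.119).

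The stromelysins MMP3 and MMP10 are closely related enzymes, both known to activate precursor collagenases, and they moved in opposite directions. MMP3, stromelysin-1, read 4.36 and 4.31 in the control cultures and 1.16 and 1.24 after knockdown. This was a fall of 3.14 on the log2 scale, 8.79-fold (SE 0.06, limma adjusted p = 0.000305), and it was the largest change of any member measured on all 4 arrays. MMP10, stromelysin-2, read -2.17 and -2.11 in the control cultures and -0.06 and 0.02 after knockdown, a log2 fold change of 2.13 (SE 0.07, limma adjusted p = 0.000486), or 4.37-fold. Replicate arrays of either gene were at most 0.08 apart, far less than the distance between the groups. Without any single array, MMP3 stayed between -3.17 and -3.10 and MMP10 between 2.09 and 2.17, and both stayed past the threshold.

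Matrilysin, MMP7, is a small MMP that lacks the hemopexin domain and is typically made by epithelial cells. It read -4.94 and -4.75 in the control cultures and -2.86 and -2.90 after knockdown. Both knockdown arrays were higher, by a log2 fold change of 1.96 (SE 0.09, limma adjusted p = 0.000949) or 3.90-fold. Under normexp background correction the difference was 1.69 and was not called (limma adjusted p = 0.651). When the spots in bright surroundings were also left out, a choice made after seeing the data, it was 0.83 (limma adjusted p = 0.000137). MMP7 was dim in the control cultures, with processed intensities of 47.6 and 51.4 units. These lie near the normexp offset of 50 units, which narrows differences between dim probes.

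Of the remaining enzymes, MMP14, a membrane-type MMP best known for activating the MMP2 precursor at the cell surface, read -1.33 and -1.10 in the control cultures and -0.66 and -0.68 after knockdown. The groups did not overlap and the log2 fold change was 0.54 (SE 0.10, limma adjusted p = 0.0170), or 1.46-fold. The 2 control arrays of MMP14 were 0.24 apart, and without either knockdown array the call was lost (limma adjusted p = 0.0710 without KPNA4 knockdown replicate 1 and 0.0709 without KPNA4 knockdown replicate 2). MMP28, epilysin, an MMP of keratinocytes and mucosal epithelium, read -2.72 and -2.43 in the control cultures and -2.25 and -2.30 after knockdown. Both knockdown arrays were above both control arrays, but the control arrays were 0.29 apart, the widest gap of any member tested, and the difference of 0.30 (SE 0.12) did not pass the threshold (limma adjusted p = 0.0993). Without control replicate 2 the difference was 0.45. Without scaling between arrays it was 0.80 and passed the threshold (limma adjusted p = 0.000578).

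TIMP1, a secreted inhibitor of most MMPs, read 0.95 and 1.09 in the control cultures and 0.56 and 0.51 after knockdown. Both knockdown arrays were below both control arrays, with a log2 fold change of -0.49 (SE 0.07, limma adjusted p = 0.0105), or 1.40-fold. The direction of TIMP1 rests on the scaling between arrays. Its processed intensity before scaling was 2840 and 2933 units in the control cultures and 2848 and 2982 units after knockdown, which overlap, and without scaling its log2 fold change was 0.01 (limma adjusted p = 0.917). The call was also lost without KPNA4 knockdown replicate 1 (limma adjusted p = 0.0505) and without KPNA4 knockdown replicate 2 (limma adjusted p = 0.0644).

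Without scaling, the knockdown arrays were brighter throughout, and the median log2 fold change of all genes moved from -0.10 to 0.40. The split of called genes then moved from 40.8% higher to 91.5% higher. Of the members, MMP3 remained lower at -2.63, MMP1, MMP9, MMP14 and MMP28 stood at 1.17, 0.84, 1.04 and 0.80, and MMP7, MMP10 and MMP13 stood at 2.47, 2.63 and 3.37. Quantile normalization and median scaling gave the members the same signs as the scaling by the 75th percentile. Small changes of MMP1, MMP9, MMP14, MMP28 and TIMP1 are therefore relative to the other genes of the array.

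**Figure D2:**
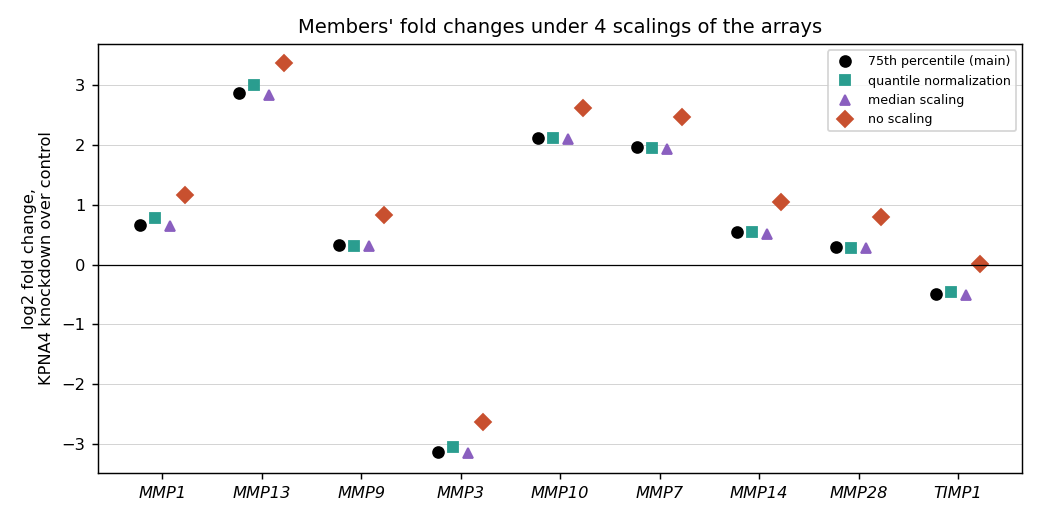
Log2 fold change of the 9 members tested (KPNA4 knockdown over control) under 4 scalings of the arrays, 1 symbol per scaling. MMP3 is below 0 and MMP7, MMP10 and MMP13 are above 0 under all 4, whereas TIMP1 moves from -0.49 to 0.01 without scaling.

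The genes whose values over the 4 arrays, each centered on its own mean, lay nearest to MMP10 by Euclidean distance were MATN2, a matrix protein of the matrilin family (distance 0.0702), HSD17B3, a hydroxysteroid dehydrogenase (0.0797), and PDE9A, a phosphodiesterase (0.0908). Nearest to MMP3 were NTNG1, a netrin-related membrane protein (distance 0.136), LINC00957, which was not well above background on either knockdown array (0.179), and LTB, a cytokine of the TNF superfamily (0.197). LTB read 3.05 and 2.93 in the control cultures and -0.30 and -0.34 after knockdown. With 4 arrays in 2 groups, genes with a difference of like size between the groups lie near each other on this measure.

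The rest of the family was read from a list of the 14 other MMPs with a probe, of which 9 were tested, 3 were higher, 2 were lower and 4 did not pass the threshold. MMP12, macrophage elastase, which is also made by some carcinoma cells, read -2.65 and -2.85 in the control cultures and 0.07 and 0.18 after knockdown. Its log2 fold change of 2.88 (SE 0.10, limma adjusted p = 0.000549), or 7.36-fold, left no overlap between the groups. MMP24, a membrane-type MMP, was higher by 1.22 (limma adjusted p = 0.00547) and MMP11, stromelysin-3, by 0.70 (limma adjusted p = 0.00745). MMP23B was lower at -1.36 (limma adjusted p = 0.00138), and so was MMP19 at -0.69 (limma adjusted p = 0.00899), whose other probe differed by -0.32. MMP15, MMP16 and MMP17, further membrane-type MMPs, differed by 0.07, 0.13 and -0.0047 and did not pass the threshold. MMP25 did not pass either at -0.23 (limma adjusted p = 0.0554), although its dimmer probe differed by -0.47 (limma adjusted p = 0.00877 in a fit of every probe). MMP8, MMP20, MMP21, MMP26 and MMP27 were not tested, and of these MMP27 alone was well above background on any array, namely 1 knockdown array. Over all 23 MMPs, 17 were tested, 9 were higher and 3 lower, and by the fitted value 5 were at least 2-fold higher and 2 at least 2-fold lower. Of all genes tested, 20.3% were higher and 29.5% lower, and 8.51% had called changes of at least 2-fold.

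While TIMP1 was lower under the main scaling, both other TIMPs that could be measured were higher. TIMP2 read 2.66 and 2.68 in the control cultures and 3.23 and 3.18 after knockdown, higher by 0.53 (SE 0.06, limma adjusted p = 0.00519). TIMP3, which binds to the extracellular matrix, read 0.09 and 0.13 in the control cultures and 1.42 and 1.49 after knockdown, higher by 1.35 (SE 0.06, limma adjusted p = 0.000967). The groups did not overlap for either gene. RECK, a membrane-anchored inhibitor, did not pass the threshold at -0.33 (limma adjusted p = 0.0631), and its other probe differed by 0.03. TIMP4, A2M and TFPI2 were not tested, as none was well above background on any array.

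**Figure D3:**
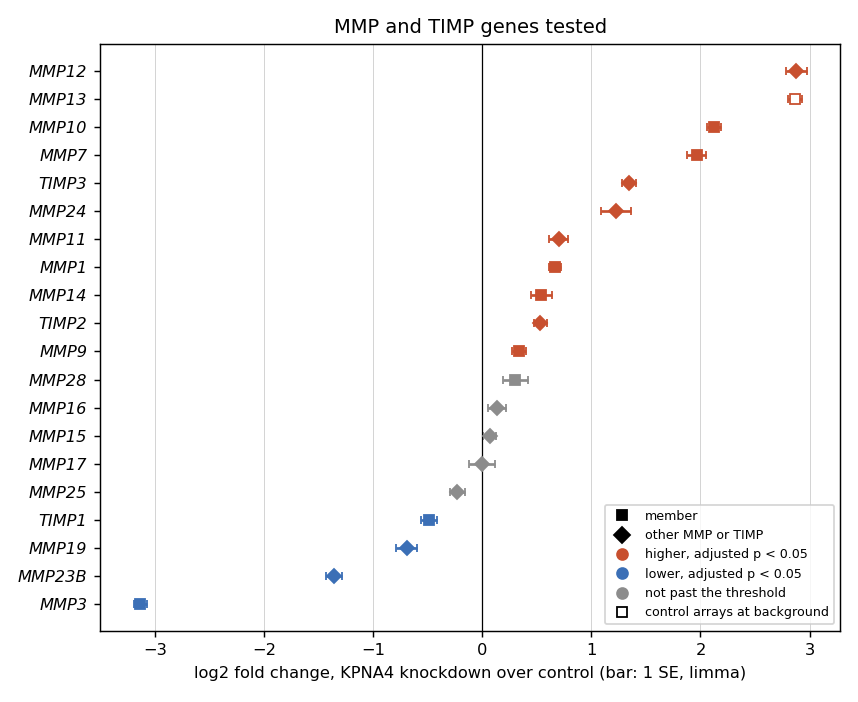
Log2 fold change (KPNA4 knockdown over control, bars 1 SE from limma) of the 17 MMPs and 3 TIMPs tested, members as squares and other genes as diamonds, colored by call at an adjusted p of 0.05. MMP12, MMP13, MMP10 and MMP7 form the upper end and MMP3 stands alone at the lower end, with the open square of MMP13 marking control arrays at background.

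On chromosome 11, 9 MMP genes lie side by side in the order MMP7, MMP20, MMP27, MMP8, MMP10, MMP1, MMP3, MMP12 and MMP13. This view was chosen after the values of the members had been seen. Of the 6 genes of the cluster that were tested, 5 were higher (MMP7, MMP10, MMP1, MMP12 and MMP13) and MMP3 alone was lower, although it lies between MMP1 and MMP12. MMP20, MMP27 and MMP8 were not tested. Beside the cluster on the MMP7 side, BIRC3, an inhibitor of apoptosis induced by NF-kB, was lower at -2.49 (limma adjusted p = 0.000359), BIRC2 was lower at -0.64 (limma adjusted p = 0.00574) and TMEM123 differed by -0.10 without passing the threshold. Beyond MMP13, DCUN1D5 differed by -0.27, DYNC2H1 by 0.36 and PDGFD by -0.80. The neighbors thus included called changes of both signs.

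**Figure D4:**
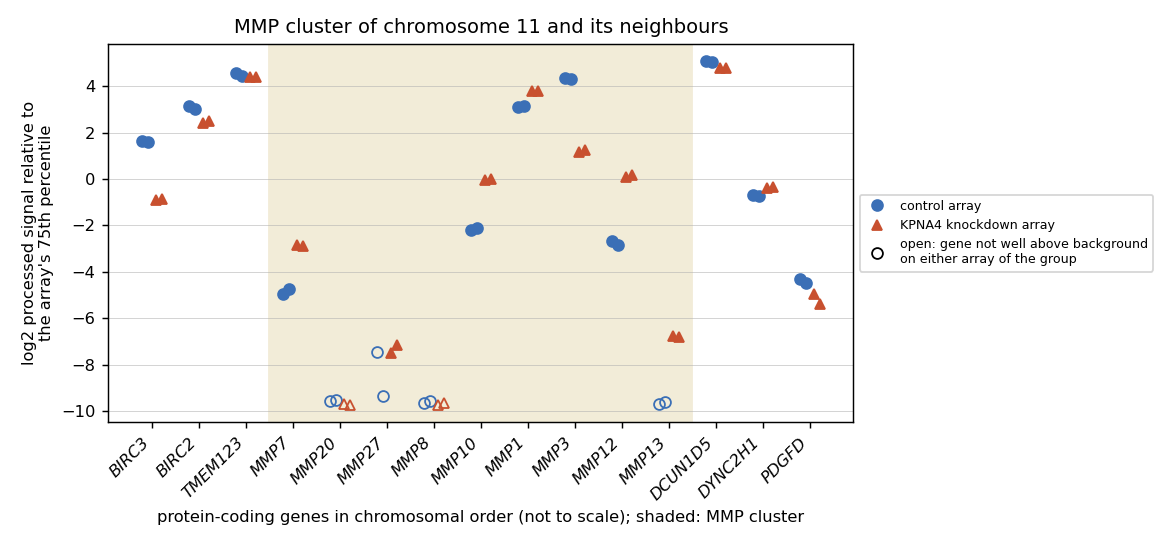
Scaled log2 processed signal (0 is the 75th percentile of an array) of the 9 MMP genes of the chromosome 11 cluster (shaded) and the 3 genes on either side, in chromosomal order with even spacing, on 2 control arrays (circles) and 2 KPNA4 knockdown arrays (triangles). Triangles lie above circles for MMP7, MMP10, MMP1, MMP12 and MMP13 and below them for MMP3 and for BIRC3.

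Genes that act on MMPs or with them were counted from lists written from general knowledge, and each count is a description. Of 22 activators and inducers tested, 4 were higher (18.2%) and 8 lower (36.4%), against 20.3% and 29.5% of all genes tested. Their median log2 fold change was -0.28, against -0.10 for all genes. TMPRSS4, a membrane serine protease, was at least 7.17-fold higher, as it was at background in both control cultures and passed the filter only through the knockdown arrays. The limma adjusted p of 0.00356 belongs to its fitted difference and does not test this limit. The cytokines IL6 and IL1A, known inducers of MMP1 and MMP3 in many cells, were lower at -2.63 (limma adjusted p = 0.000507) and -2.35 (limma adjusted p = 0.000490), and the EGF receptor ligand HBEGF was lower at -1.36 (limma adjusted p = 0.00184). IL6 read -1.67 and -1.85 in the control cultures and -4.40 and -4.37 after knockdown, and IL1A read 3.47 and 3.34 in the control cultures and 1.02 and 1.08 after knockdown. For both cytokines the groups were far apart compared with the replicate arrays.

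Of 21 genes tested from a list of AP-1, ETS and NF-kB factors, 4 were higher (19.0%) and 8 lower (38.1%), with a median of 0.08. The list also held NFKBIA, an inhibitor of NF-kB and not a factor itself, which was among the 8 lower (-0.76, limma adjusted p = 0.00269). Of all genes tested, 20.3% were higher and 29.5% lower. The largest called changes were falls of ETS1 (-1.74, limma adjusted p = 0.000593), of the AP-1 subunit FOSL1 (-1.36, limma adjusted p = 0.00228) and of the NF-kB subunit RELB (-1.19, limma adjusted p = 0.00145). Without scaling, 12 of these 21 genes were higher and 3 lower, and of the activators and inducers 9 were higher and 4 lower. The balance of both lists thus turned with the scaling. So did that of all 19550 genes, with 11257 higher and 1048 lower, and the turn is not particular to these lists.

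Of 29 matrix and surface substrates of MMPs tested, 13 were higher (44.8%) and 5 lower (17.2%), with a median of 0.04 (20 and 2 without scaling). Of all genes tested, 20.3% were higher and 29.5% lower. Tenascin C (TNC) was higher by 1.65 (limma adjusted p = 0.000965), the fibrillar collagen chain COL1A1 by 1.62 (limma adjusted p = 0.00129) and SPARC, a collagen-binding matrix protein, by 1.39 (limma adjusted p = 0.000915), whereas elastin (ELN) was lower at -2.07 (limma adjusted p = 0.00145). COL1A1 also counts among the fibroblast markers. The summed level of the 10 fibroblast markers, relative to the 75th percentile, was 0.236 to 0.238 on the control arrays and 0.394 to 0.425 on the knockdown arrays, with COL3A1, PDGFRA, THY1 and POSTN not well above background on any array. Among the markers 3 were higher (COL1A1, COL1A2 and PDGFRB) and 2 lower, FAP at -0.42 (limma adjusted p = 0.0379) and LUM, at least 1.49-fold lower and at background after knockdown. PDGFRB passed the filter only through the knockdown arrays, as it was well above background on only 1 control array. The part of these markers in the results was not tested. The 7 leukocyte markers with a probe summed to 4.75 to 4.81 on the control arrays and 6.16 to 6.50 on the knockdown arrays, most of it CD14, with CD163 not well above background on any array. They went both ways, with CD14 and CSF1R higher at 0.54 and 0.48 and CD68 and PTPRC lower at -1.37 and -0.55. Another PTPRC probe, also well above background on all arrays, differed by -0.03 (limma adjusted p = 0.777 in a fit of every probe). The endothelial markers summed to 0.0996 to 0.101 and 0.0662 to 0.0712, with PECAM1, KDR and TEK not well above background. The 2 tested were lower, CDH5 at -0.48 (limma adjusted p = 0.0207) and VWF at -0.53 (limma adjusted p = 0.0113), and neither was called without scaling.

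The ADAM and ADAMTS metalloproteinases are relatives of the MMPs that shed surface proteins or cleave proteoglycans. Their list also held ADAMTSL4, an ADAMTS-like protein without a protease domain. Of 13 listed genes tested, 6 were higher (46.2%), ADAMTSL4 among them, and 3 lower (23.1%). Their median was 0.01 (9 higher and 2 lower without scaling). Of all genes tested, 20.3% were higher and 29.5% lower. ADAM19 was at least 3.40-fold higher and ADAMTS4 at least 1.89-fold higher, both at background in both control cultures and kept only through the knockdown arrays, so that the limma adjusted p of their fitted differences (0.0232 and 0.0303) does not test these limits. By comparison, ADAM8 was lower at -1.78 (limma adjusted p = 0.000692) and ADAMTS6 at -1.51 (limma adjusted p = 0.00254).

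**Figure D5:**
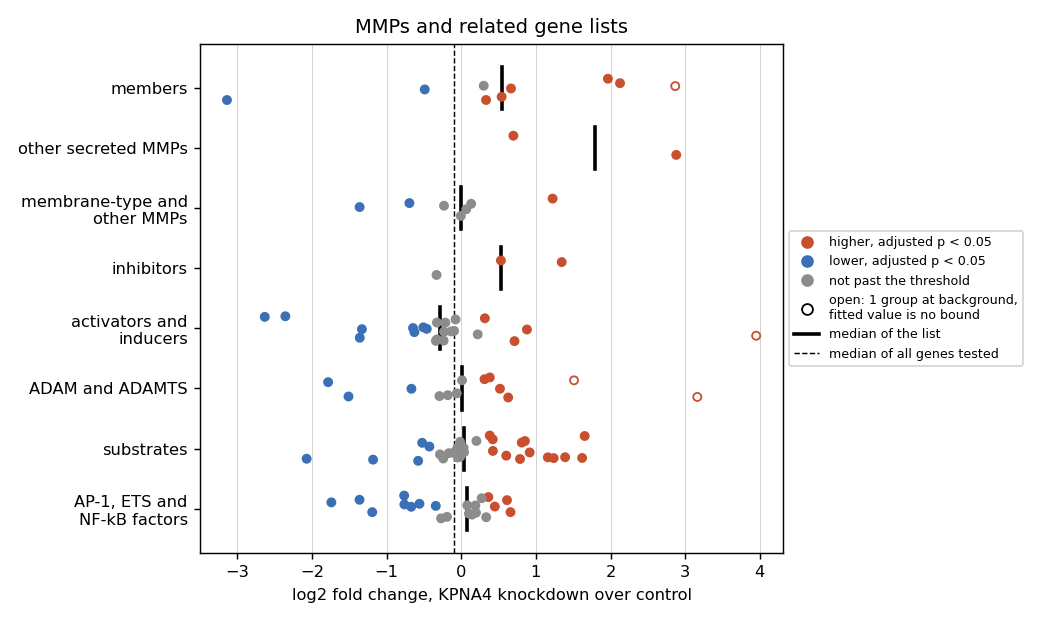
Log2 fold change (KPNA4 knockdown over control) of the genes tested in the member set and in 7 related lists, 1 point per gene with random vertical spread, colored by call at an adjusted p of 0.05 with limma. Open points are genes at background in 1 group, thick bars are list medians and the dashed line is the median of all genes tested (-0.10); MMP3 is the leftmost point of all lists.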

How the data were processed

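Gene expression was measured in 2 control and 2 KPNA4 knockdown cultures of Ca9-22 on 1-color Agilent arrays, and groups follow the sample labels. The authors deposited the output of Agilent Feature Extraction 11.0.1.1 for each array, with a processed signal intensity that had background and spatial trend removed and no scaling between arrays. The deposited spot median intensity and local background served only the normexp alternative, which used an offset of 50 units. The deposited table of 24209 probes holds a ratio, found to be the processed signal over the 75th percentile of its array within 0.01 log2 (column medians 0.327, 0.330, 0.334 and 0.331), and was an alternative.

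Control spots and outlier-flagged spots (333 to 355 of 43118 gene spots per array, none of a member) were dropped, replicate spots averaged, log2 values were set relative to the 75th percentile, and a gene was represented by its brightest probe among those well above background in both cultures of 1 group or of both. No gene spot was saturated. Probes were named through transcript accessions in a RefSeq table, which matched 25771 of 34127 probes. limma 3.58.1 in R 4.3.3 (lmFit, eBayes) was run on 19550 genes, 15114 of them with a symbol, and tested on simulated data. Array numbers limit the precision. Members, lists and tests were chosen with earlier results of these data known. Named are all members, KPNA4, every other MMP or TIMP tested, the 4 largest called changes of at least 1 (log2) in each other list, and the 3 genes nearest to MMP10 and to MMP3 over the 4 arrays; the markers, the neighbors of the cluster and the genes that depend on a line's genome were named besides. Same-numbered arrays did not deviate together (correlation -0.03) and were not paired. A comparison of member protein sequences was planned and not run.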

Additional observations from a re-analysis of the deposited data

How the results depend on the processing

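Of the members, MMP3 stayed lower and MMP1, MMP7, MMP9, MMP10 and MMP14 stayed higher in sign under all 16 alternatives, with log2 fold changes from -3.23 to -2.63 for MMP3, 1.88 to 2.63 for MMP10, 0.83 to 2.47 for MMP7 and 0.45 to 1.17 for MMP1. Without scaling, 11257 genes were higher and 1048 lower, 7 members were higher and 1 was lower, and TIMP1 turned to 0.014. With normexp background correction limma called 0 genes higher and 0 lower (1165 of 19550 at an unadjusted p under 0.05), and 0 members in either direction. KPNA4 was not called either (limma adjusted p = 0.651), and 12 spots of KPNA4 knockdown replicate 2 had a local background over 100. An alternative without those spots, chosen after seeing the data, called 3743 genes higher and 9118 lower. It called 5 members higher and 2 lower, and turned MMP13 to -0.11. Both normexp alternatives added an offset of 50 units, which narrows differences between dim probes such as that of MMP13. At an adjusted p under 0.01, 4 members were higher and 1 was lower. Leaving out 1 array at a time gave 2150 to 3596 genes higher and 2522 to 4746 lower, with 4 to 7 members higher and 1 to 2 lower. With the replicate block, although the array numbers were not taken as pairs, 3262 genes were higher and 4639 lower, and 6 members were higher and 2 lower. A fit of every probe gave the same counts of members. The cause of these shifts was not tested. Signal over background limits MMP2 and MMP13, and the number of arrays limits the small changes of MMP9, MMP14, MMP28 and TIMP1.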
